A study of Mus musculus with 6 samples.

Results

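C-type lectin receptors are the surface proteins by which dendritic cells (DCs) and other myeloid cells read sugars, lipids and dead cells. 10 genes of this family, set by name, were followed: Clec4e, Clec4d, Clec4n, Clec4a3, Clec9a, Mrc1, Clec10a, Mgl2, Cd209a and Clec7a. Of the 31053 genes in the count matrices, 9 of these 10 were found and are described here. Clec7a, the gene of Dectin-1, was not analysed here.

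The genes were measured by droplet single-cell RNA sequencing (10x Genomics, 3′ chemistry) in 6 libraries of mouse cells, 1 per condition, so no difference between conditions has a replicate check and no test between conditions was made. 3 libraries came from bone marrow-derived DCs (BM-DCs) raised with GM-CSF: untreated DCs, DCs stimulated with VD3 (the active form of vitamin D3, 1e-06 M for 24 h from day 7 of culture), and Ndrg2-KO DCs, made by nucleofection of Cas9 protein with a pool of 3 guide RNAs against Ndrg2. The untreated DCs had no nucleofection, so the knockout, the nucleofection and the culture it was made in cannot be told apart. The other 3 libraries came from splinted excisional wounds of mice treated with pullulan-collagen hydrogels, explanted on day 10: hydrogels seeded with control DCs, hydrogels seeded with Ndrg2-KO DCs, and blank hydrogels without cells. The labels call the control DCs of the wounds untreated, whereas the study's methods describe DCs nucleofected with 3 non-targeting guide RNAs. The methods give 5 mice per wound group, and each group was 1 library, so the spread between mice is unknown. Host and seeded cells were not separated in the wound libraries.

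Most of these receptors recognise carbohydrates through a calcium-dependent lectin fold. Mincle, MCL and Dectin-2 signal through the adaptor FcRγ and the kinase Syk to Card9 and NF-κB, and sense mycobacterial and fungal glycolipids and mannans. DNGR-1 binds the actin skeleton of dead cells and marks the cross-presenting type 1 conventional DCs (cDC1). The mannose receptor and the galactose-type lectins take up glycoproteins and are known from alternatively activated macrophages and from monocyte-derived and type 2 DCs.

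The genes lie on 4 mouse chromosomes (GRCm38). On chromosome 6 are Clec4a3 (ENSMUSG00000043832, 122952515 to 122969875, plus strand), Clec4n (ENSMUSG00000023349, 123229843 to 123247021, plus), Clec4d (ENSMUSG00000030144) and Clec4e (ENSMUSG00000030142), and farther along Clec9a (ENSMUSG00000046080). Mgl2 (ENSMUSG00000040950) and Clec10a (ENSMUSG00000000318, 70156197 to 70170834, plus) are neighbours on chromosome 11. Mrc1 (ENSMUSG00000026712, 14229392 to 14332057, plus) is on chromosome 2 and overlaps Mir511, and Cd209a (ENSMUSG00000031494, 3743397 to 3748984, minus) is on chromosome 8.

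Kept cells had at least 300 genes, under 100000 unique molecular identifiers (UMIs, the counted molecules) and under 10% mitochondrial UMIs. There were 1948 to 8825 kept cells per library, with 29675507 to 143627482 UMIs. For each library or cell class, the UMIs of a gene were added up and scaled to 1000000 UMIs (CPM). All intervals are exact 95% intervals and cover counting error only. A gene is counted as higher or lower in a comparison when its CPM differed at least 2-fold and it had at least 50 UMIs in the 2 sums together. Ndrg2, the targeted gene, stood at 4.62 CPM in untreated, 1.42 in VD3 stimulated and 0.884 in Ndrg2-KO DCs, and at 6.10 CPM in control DC wounds, 3.33 in Ndrg2-KO DC wounds and 3.29 in blank hydrogel wounds. Clusters of cells were named from fixed marker lists, and most clusters of cultured cells came from 1 library each, so cluster and condition often cannot be told apart in culture. Pairs of culture libraries shared 11 to 19 cell barcodes and pairs of wound libraries 2 to 3.

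**Figure D1:**
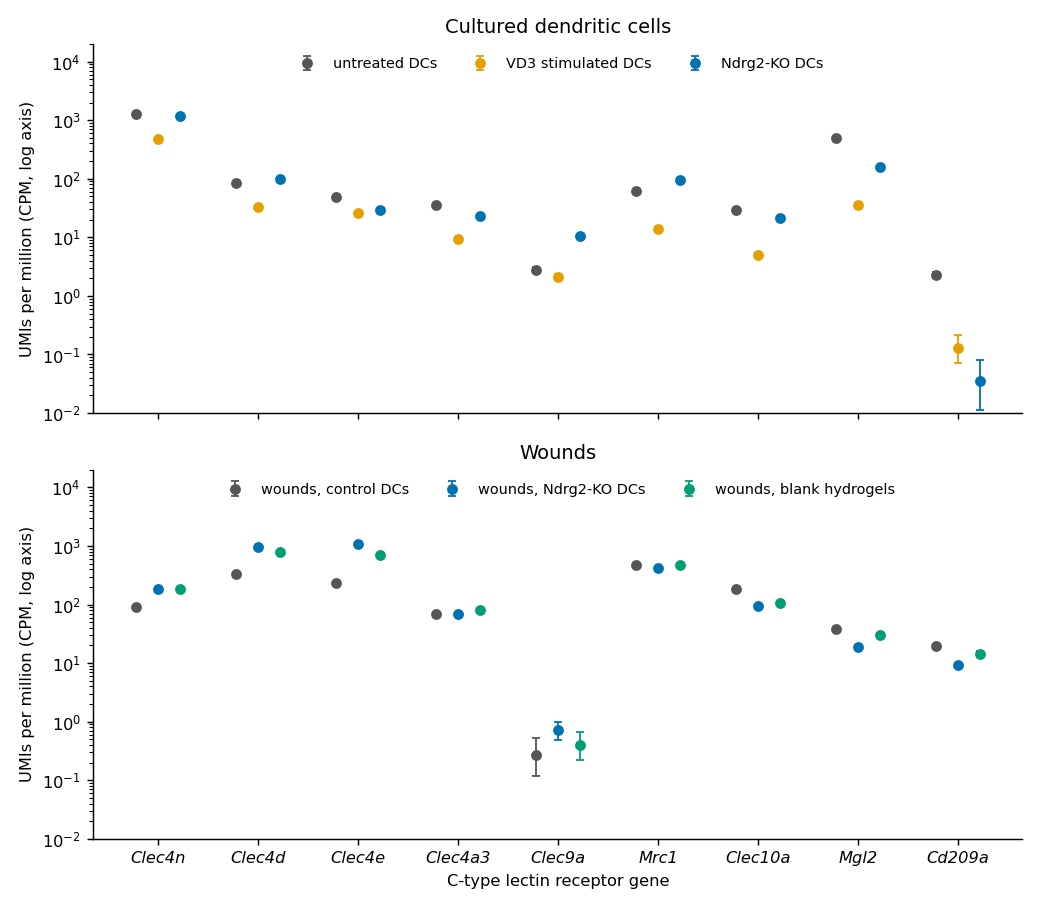
Level of 9 C-type lectin receptor genes in each library, in CPM on a log axis, for cultured DCs (upper panel) and wounds (lower panel), with exact 95% Poisson intervals. In culture, VD3 stimulated DCs are the lowest of the 3 libraries for 8 of the genes and Ndrg2-KO DCs for Cd209a, and in wounds Clec4d, Clec4e and Clec4n are lowest with control DCs.

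VD3 stimulated DCs had lower levels of nearly all of these receptors than untreated DCs. The galactose-type lectins and Cd209a differed most, followed by Mrc1, Clec4a3 and the Dectin-2 gene. 7 of 9 members were at least 2-fold lower and 0 were higher, where 7.44% of the 13113 genes compared were at least 2-fold lower and 4.18% higher. The median log2 ratio over the members was -1.92 and over all genes -0.076.

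Mgl2, the gene of macrophage galactose-type lectin 2, which binds terminal N-acetylgalactosamine, was counted at 492 CPM without and 35.0 CPM with VD3. The log2 ratio was -3.81 (interval -3.86 to -3.77). It lies on chromosome 11 from 70130329 to 70137550 (GRCm38, plus strand). Its promoter is shown because, of the members above 100 CPM in untreated DCs, it differed most in both culture comparisons. The 300 bases from 250 before to 50 after the transcription start (RefSeq, GRCm38.p6, chr11:70130107-70130406, plus strand) hold 1 copy of the PU.1 core GAGGAA, in capitals, at bases 26 to 31.
Mgl2 promoter: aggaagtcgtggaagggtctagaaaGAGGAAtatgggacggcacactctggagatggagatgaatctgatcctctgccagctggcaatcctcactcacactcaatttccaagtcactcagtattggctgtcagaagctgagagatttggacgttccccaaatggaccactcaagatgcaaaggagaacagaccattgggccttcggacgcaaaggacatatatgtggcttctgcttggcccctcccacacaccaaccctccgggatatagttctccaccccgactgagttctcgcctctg
The core, read on both strands, was found in 28.3% of 32851 mouse promoters of this length. No direct repeat of the vitamin D receptor type (DR3, found in 13 of these promoters, 0.0396%) and no AP-1 site TGANTCA was found in the promoters of the members in the promoter table, which has none for Clec4n and Clec10a.

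Clec10a, the neighbouring gene and the closest relative of Mgl2, was counted at 29.4 CPM without and 4.91 CPM with VD3, a level 5.98-fold lower (log2 ratio -2.58, interval -2.71 to -2.45). Of the 50-base windows in the last 500 bases of its transcript, 20.4% also occur in Mgl2 transcripts, so part of the reads cannot be assigned between these 2 genes. Cd209a, a mouse relative of the human pathogen receptor DC-SIGN, was counted at 2.27 CPM (301 UMIs) without and 0.129 CPM (15 UMIs) with VD3. Its log2 ratio of -4.14 (interval -5.00 to -3.39) was the lowest of the members and rests on few UMIs. Mrc1, the mannose receptor, was counted at 62.7 CPM without and 14.1 CPM with VD3, a level 4.46-fold lower (log2 ratio -2.16, interval -2.23 to -2.08).

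Among the receptors of the Clec4 group on chromosome 6, Clec4n, the gene of Dectin-2, which binds fungal α-mannans, was counted at 1263 CPM without and 474 CPM with VD3, 2.67-fold lower. Clec4a3, a member of the DC immunoreceptor family, was counted at 35.3 and 9.31 CPM, 3.79-fold lower. The gene of MCL, Clec4d, the partner of Mincle, was counted at 85.7 and 32.8 CPM, 2.61-fold lower. Mincle itself, the receptor of mycobacterial cord factor encoded by Clec4e, was counted at 49.0 and 25.7 CPM, 1.91-fold lower and so just short of the 2-fold limit. Clec9a, the gene of DNGR-1, differed least, at 2.78 and 2.12 CPM (log2 ratio -0.39, interval -0.63 to -0.15). All 9 log2 ratios were below 0 in each of 8 settings of cell filter, scaling and doublet removal. A limit of 5% mitochondrial UMIs, which keeps 43.1% of the untreated and 41.0% of the VD3 stimulated cells, moved the log2 ratio of Mrc1 to -3.86, of Clec4a3 to -0.94 and of Clec4d to -0.83.

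After every cell was drawn down to 2000 UMIs, Mgl2 UMIs were found in 25.8% of untreated and 4.08% of VD3 stimulated cells, against 0 of 51 and 0 of 71 basophil-like cells, which allows shares of up to 5.88% and 4.23% (for a share of 0, the share that 3 cells would give), so the VD3 share of Mgl2 is not above this background limit. Clec4n UMIs were found in 51.6% of untreated and 37.8% of VD3 stimulated cells, against 1.96% and 4.23% of basophil-like cells. The median depth of these basophil-like cells was 8544 and 6879 UMIs. Mrc1 UMIs were found in 7.58% of untreated and 1.69% of VD3 stimulated cells. They were found in 0 of the same basophil-like cells, which allows the same limits, so these cannot decide for Mrc1 either. By level, Mrc1 had 0 UMIs in the basophil-like cells of the cultures together (up to 2.77 CPM), against 14.1 CPM over the VD3 library.

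The lower Mgl2 level was also seen within named cell classes. Most mature DC-like cells were in cluster 2 without and cluster 1 with VD3, and most proliferating cells in clusters 6 and 3, so these classes compare different clusters, whereas neutrophil-like and cDC1-like cells were 1 cluster each. In mature DC-like cells, whose clusters each carried at least 3 of 8 mature DC markers, Mgl2 stood at 23.5 CPM without VD3. With VD3 Mgl2 was at 2.44 CPM (log2 ratio -3.27), within the interval of basophil-like cells given above. In neutrophil-like cells it was counted at 178 and 17.1 CPM (log2 ratio -3.37), with UMIs in 112 of 925 and 15 of 1115 cells. In the cDC1-like cluster, with 77 untreated and 150 VD3 stimulated cells, it was counted at 580.5 and 46.4 CPM (log2 ratio -3.65, interval -3.98 to -3.33). In proliferating cells it was counted at 702 and 50.9 CPM (log2 ratio -3.79), most of the VD3 stimulated ones from a cluster of shallow cells. Mgl2 was thus lower by a similar factor in 4 cell classes. It was not in a class led by Elane and Prtn3, with 104 untreated and 1080 VD3 stimulated cells, where it was counted at 78.3 and 67.9 CPM (log2 ratio -0.21, interval -0.41 to 0.0024). Over the whole libraries, the summed 5 granulocyte-monocyte progenitor markers, Elane and Prtn3 among them, were at 217 CPM without and 85.2 CPM with VD3. Whether this class holds like cells in both libraries was not tested, so its ratios may compare unlike cells. Cd209a in the cDC1-like cluster was counted at 79.7 and 3.99 CPM, and Clec9a there at 103 and 55.3 CPM (log2 ratio -0.89, interval -1.28 to -0.50).

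The other receptors did not all show this pattern within classes. Clec4a3 had log2 ratios of 0.39 in mature DC-like and 0.55 in neutrophil-like cells, against -1.92 over the whole library. In the class led by Elane and Prtn3, Clec4n was counted at 12.2 CPM without and 571 CPM with VD3 and Mrc1 at 2.87 and 21.7 CPM, opposite to the whole library. As said above, this class may hold unlike cells without and with VD3. The log2 ratio of Clec4n was -0.44 in mature DC-like, -0.78 in neutrophil-like and -0.068 in cDC1-like cells. A set of 1122 untreated cells led by Plet1 and Cxcl3, which matched no marker list and had 3 counterparts with VD3, held Clec4n at 2897 CPM and Mgl2 at 925 CPM. These levels are far above those of mature DC-like cells, where Clec4n was counted at 129 CPM without and 95.1 CPM with VD3. The part of this shift of cell classes in the library ratios was not tested. Over a whole library, fewer cells of a class and less RNA of a gene per cell cannot be told apart.

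**Figure D2:**
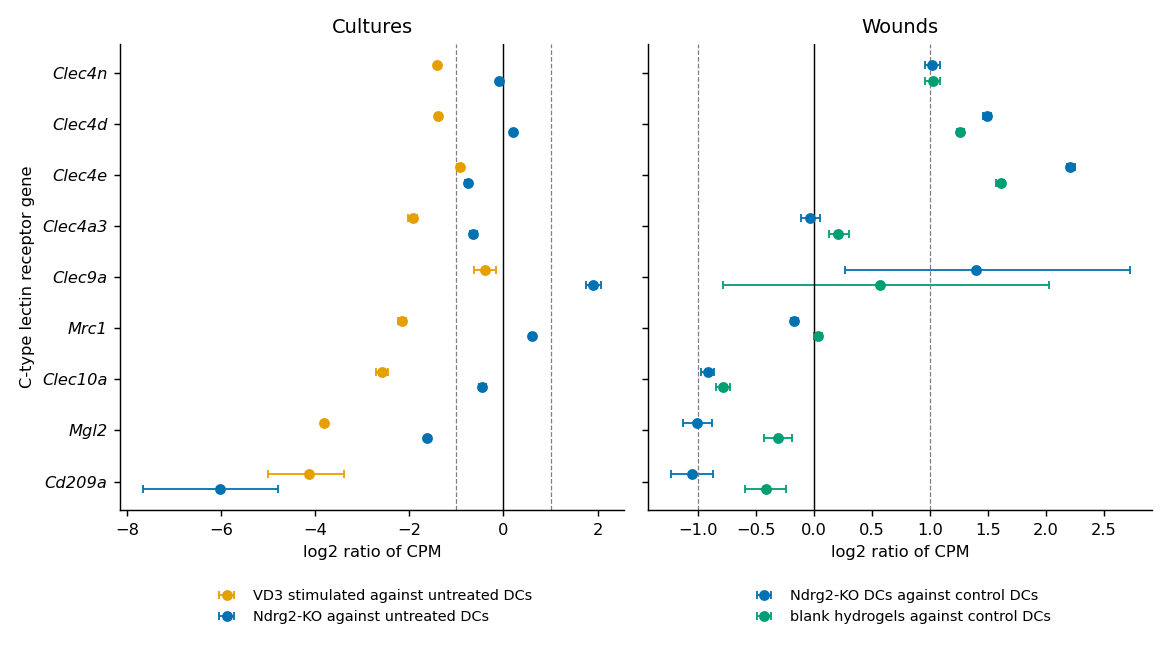
Log2 ratio of CPM for each C-type lectin receptor gene in the 4 comparisons, with exact 95% intervals for counting error and dashed lines at the 2-fold limits. All members lie below 0 for VD3 against untreated DCs, from -0.39 for Clec9a to -4.14 for Cd209a, while Clec9a reaches 1.91 for Ndrg2-KO against untreated DCs and Clec4e 2.21 for wounds with Ndrg2-KO DCs against control DCs.

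Ndrg2-KO DCs were compared with the same untreated library, so both culture comparisons share their reference. Clec9a was higher, Mgl2 and Cd209a were lower, and the Dectin-2 gene was near its untreated level. 1 of 9 members was at least 2-fold higher and 2 were lower, where 10.2% of the 13329 genes compared were higher and 9.28% lower, so the share of members that were higher is near that of all genes. The median log2 ratio over the members was -0.45 and over all genes -0.059.

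Cd209a was counted at 5 UMIs in Ndrg2-KO DCs (0.0348 CPM) against 301 in untreated DCs (log2 ratio -6.03, interval -7.66 to -4.79). After drawing to 2000 UMIs it was found in 0 of 7835 Ndrg2-KO cells, which allows up to 0.0383%, and in 0.295% of untreated cells. The untreated share moves with the draw: it rests on 20 cells, and another draw to this depth gave 30. Mgl2 stood at 159.9 CPM in the knockout culture, 3.07-fold lower than in untreated DCs (log2 ratio -1.62, interval -1.64 to -1.60). Its share of cells was 16.8% at equal depth against 25.8% in untreated DCs, but 44.4% against 40.7% at full depth, so no order is read from the share. The level of Mgl2 was thus lower while its order by share of cells depended on depth.

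Mrc1 stood at 95.3 CPM in the knockout culture, 1.52-fold higher than in untreated DCs, and 13.6% against 7.58% of cells had a Mrc1 UMI at equal depth. In the knockout culture the share was 0.864% of mature DC-like cells, with a median depth of 10700.0 UMIs, and 20.3% of immature monocyte-derived-like cells, with 19003. The Clec4n level was 1184 CPM (log2 ratio -0.093), Clec4d at 98.6 CPM (0.20), Clec4e at 29.0 CPM (-0.76), Clec4a3 at 22.7 CPM (-0.64) and Clec10a at 21.5 CPM (-0.45). None of these 5 passed the 2-fold limit. The signs of 4 of them depended on the setting. With the 5% mitochondrial limit, which keeps 21.6% of the Ndrg2-KO cells, the log2 ratio became 0.37 for Clec4n, 0.16 for Clec4a3 and 0.38 for Clec10a, the log2 ratio of Mrc1 was 1.41 there, and with a mean over cells it became -0.053 for Clec4d and 0.070 for Clec10a.

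A large share of this library has no counterpart in the untreated library. 4069 of 7969 Ndrg2-KO cells, 51.1%, formed a cluster named immature monocyte-derived-like from Csf1r, Ccr2, Lyz2, Fn1 and Mmp12, which held 3 untreated and 0 VD3 stimulated cells. In it Clec4n was counted at 1449 CPM, Mgl2 at 164 CPM and Mrc1 at 117 CPM. The summed markers of neutrophil-like cells were at 434 CPM in Ndrg2-KO DCs against 5345 CPM in untreated DCs, and 33 against 925 cells were neutrophil-like. The part of these differences in the results for the receptors was not tested.

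In classes that both libraries held, the galactose-type lectins did not share 1 direction. In mature DC-like cells Mgl2 stood at 23.5 CPM in the untreated and 40.4 CPM in the knockout culture (log2 ratio 0.78, interval 0.66 to 0.91). Clec10a there was counted at 2.01 and 13.2 CPM (2.72, interval 2.37 to 3.08). In proliferating cells Mgl2 was counted at 702 and 207 CPM (log2 ratio -1.76), and the log2 ratio of Clec10a was -0.90. Mgl2 was thus lower in proliferating but not in mature DC-like cells. Both classes lie in different clusters in the 2 libraries: most mature DC-like cells were in cluster 2 in the untreated and cluster 5 in the knockout culture, and most proliferating cells in clusters 6 and 10.

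Clec9a reached 1503 UMIs (10.5 CPM) in Ndrg2-KO DCs, against 368 UMIs (2.78 CPM) in untreated DCs and 2.12 CPM with VD3. The knockout to untreated log2 ratio was 1.91 (interval 1.75 to 2.08), a level 3.77-fold higher, and it was 1.01 with the 5% mitochondrial limit. Since Clec9a is a defining gene of cDC1, cDC1-like cells were set apart as those with UMIs of at least 2 of 9 other cDC1 markers. This gave 475 untreated, 378 VD3 stimulated and 426 Ndrg2-KO cells. They were deep cells, with median depths of 29918, 18306 and 25513 UMIs, against 15266, 11935 and 15937 for the other cells. The name cDC1-like stands for this rule only. In the knockout culture Wdfy4 was found in 2693 cells, Tlr3 in 386 and Cadm1 in 346, but Itgae in 36 and Tespa1 in 11. The 426 Ndrg2-KO cells were thus not shown to be cDC1. The summed 9 markers, all with UMIs in every library, were at 61.7, 44.4 and 36.4 CPM.

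Outside cDC1-like cells the Clec9a level was 1.02 CPM without treatment (interval 0.849 to 1.23, 119 UMIs), 0.846 CPM with VD3 (0.681 to 1.04, 91 UMIs) and 10.2 CPM in the knockout culture (9.63 to 10.7, 1345 UMIs). The knockout to untreated log2 ratio there was 3.31 (interval 3.04 to 3.59), and that of VD3 against untreated cells -0.28 (interval -0.69 to 0.13). These cells held 89.5% of the Clec9a UMIs of Ndrg2-KO DCs, against 32.3% in untreated and 36.8% in VD3 stimulated DCs. Within cDC1-like cells the level was 15.2, 17.6 and 13.9 CPM, but this depended on the number of markers. With 3 markers required it was 38.1, 42.6 and 12.7 CPM, and with 1 marker 4.27, 3.91 and 12.8 CPM. Outside the cells so defined, the Ndrg2-KO level was above the other libraries at either number, at 1.04, 0.980 and 10.5 CPM with 3 markers and 0.954, 0.897 and 8.06 CPM with 1. The cells outside then held 99.3% and 38.0% of the Clec9a UMIs of Ndrg2-KO DCs. The log2 ratio stayed between 3.08 and 3.33 in 10 other settings of filter, scaling, marker number and depth, and was 2.43 outside the cDC1-like cluster in place of the cDC1-like cells. The value for cells drawn to 2000 UMIs moves with the draw, since few UMIs remain: it was 3.14 in that range, and 2.83 (interval 2.03 to 3.75) in the draw used for the shares below, from 117 and 14 UMIs.

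The signal was spread thinly over many cells. Of the Ndrg2-KO cells outside the cDC1-like cells, 831 held 1 Clec9a UMI, 162 held 2 and 57 held 3 or more, with 5 as the highest. In the untreated cells these numbers were 93, 6 and 3. Drawn to 2000 UMIs, 1.57% of Ndrg2-KO cells (interval 1.30 to 1.87) held Clec9a, against 0.222% of untreated (0.121 to 0.372) and 0.164% of VD3 stimulated cells (0.0850 to 0.287). Within the knockout culture, at the same drawn depth, Clec9a was found in 2.64% (interval 2.17 to 3.18) of 4054 immature monocyte-derived-like cells, 0.144% (0.0297 to 0.420) of 2083 mature DC-like cells and 0 of 432 cells of the class led by Mmp9 and Adgre4, which allows up to 0.694%. Their median depths before drawing were 19003, 10700.0 and 7535 UMIs.

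The Clec9a UMIs of the knockout culture came mostly from 2 clusters. The immature monocyte-derived-like cells outside the cDC1-like set held 66.6% of them, at 13.2 CPM (interval 12.4 to 14.1). The 958 cells outside the cDC1-like set in a proliferating cluster, which also carried 4 of the immature monocyte-derived markers, held 20.8%, at 12.6 CPM. Mature DC-like cells of the same library were at 0.945 CPM (24 UMIs), against 0.535 CPM (22 UMIs) in those of the untreated library. A cluster led by Mmp9 and Adgre4 was at 0.750 CPM. Basophil-like cells had levels as high as those 2 clusters. They stood at 18.2 CPM without (11 UMIs) and 13.8 CPM with VD3 (10 UMIs). Outside the cDC1-like set, the untreated class led by Plet1 and Cxcl3 was at 2.33 CPM, with Clec9a UMIs in 4.65% of 1033 cells. Within proliferating cells as a class, the cDC1-like ones included, Clec9a stood at 2.07 CPM in the untreated and 11.7 CPM in the knockout culture (log2 ratio 2.49, interval 2.19 to 2.81). Outside the cDC1-like set it was at 0.652 and 11.8 CPM. Most of these cells were in cluster 6 in the untreated and cluster 10 in the knockout culture. In cluster 6, outside the cDC1-like set, 110 Ndrg2-KO cells had 0 Clec9a UMIs (up to 2.10 CPM). The untreated cells there were at 0.634 CPM.

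The cDC1 markers did not all move together with Clec9a: 7 of 9 were counted at a lower level in Ndrg2-KO than in untreated DCs. Wdfy4, which supports cross-presentation, carried most of the sum and was counted at 38.9, 26.7 and 27.6 CPM without treatment, with VD3 and in the knockout culture. Xcr1, the chemokine receptor of cDC1, was counted at 0.204, 0.112 and 0.104 CPM. Itgae was counted at 6.98, 4.30 and 0.355 CPM. Cadm1 was higher in Ndrg2-KO DCs, at 3.99 CPM against 0.256 in untreated DCs. The cluster named cDC1-like held 77 untreated, 150 VD3 stimulated and 1 Ndrg2-KO cell. Tlr3 was also higher, at 2.81 against 1.92 CPM. Tcea3 was counted at 9.07, 7.54 and 1.19 CPM, Tespa1 at 3.84, 1.94 and 0.0835 CPM, Gcsam at 0.287, 2.26 and 0.111 CPM, and Gpr33 at 0.241, 0.137 and 0.0766 CPM. With at least 3 markers required, 186, 152 and 26 cells remained.

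Clec9a lies on chromosome 6 from 129408862 to 129424763 (GRCm38, plus strand), and its first 474 bases, up to 129409335, overlap Clec1b, the gene of the platelet and myeloid receptor CLEC-2, on the same strand. The genes share 184 exonic bases, where the first exon of Clec9a lies in the last exon of a Clec1b transcript annotated as a retained intron. The Clec9a promoter is shown because all its 300 bases (RefSeq, GRCm38.p6, chr6:129408612-129408911, plus strand) lie in annotated Clec1b exons. None of the motifs searched on both strands (the PU.1 core, C/EBP TTNNGCAA, AP-1, the IRF motif of 2 GAAA units spaced by 2 bases, and DR3) was found in it, so it has no capitals.
Clec9a promoter: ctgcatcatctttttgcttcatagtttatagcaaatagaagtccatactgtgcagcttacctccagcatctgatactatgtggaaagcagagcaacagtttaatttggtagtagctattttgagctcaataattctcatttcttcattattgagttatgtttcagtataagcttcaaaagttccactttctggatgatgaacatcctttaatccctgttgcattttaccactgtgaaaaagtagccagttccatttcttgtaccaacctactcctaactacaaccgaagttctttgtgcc
At its other end Clec9a lies 8 bases from Clec1a, which is on the minus strand. A stretch of 15428 bases separates the overlap with Clec1b from the end of Clec9a, where 3′ tags are mostly read.

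The neighbours of Clec9a were higher in the knockout culture as well. Clec1b reached 45.1 CPM in Ndrg2-KO DCs, against 4.88 CPM in untreated DCs and 4.46 CPM with VD3 (log2 ratio of the knockout 3.21, interval 3.09 to 3.33). Clec1a stood at 1.08 CPM in the untreated and 6.82 CPM in the knockout culture (2.66, interval 2.41 to 2.92). Olr1, the gene of the scavenger receptor LOX-1 in the same cluster of genes, was counted at 14.5 and 72.1 CPM (2.31, interval 2.24 to 2.38). Clec12a and Clec2d of this gene cluster were not higher, at 91.4 and 43.4 CPM and at 126 and 109.7 CPM.

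Outside cDC1-like cells, summed over all cell types, Clec9a and Clec1b were counted in a similar proportion in the 3 cultures. There were 20.6 Clec9a UMIs per 100 Clec1b UMIs in untreated, 19.4 in VD3 stimulated and 23.3 in Ndrg2-KO cells. These sums join unlike clusters. In clusters 2, 6 and 9 of untreated cells the number was 371 (from 26 and 7 UMIs), 65.3 and 37.8. With VD3 it was 64.9, 37.8 and 23.1 in clusters 1, 7 and 8. Within the knockout culture the number was 22.8 in the immature monocyte-derived-like cluster and 23.4 in the proliferating cluster. All values by cluster in this paragraph are for whole clusters. The other clusters rest on few UMIs: the mature DC-like cluster had 18 Clec9a and 25 Clec1b UMIs, a higher proportion, and the cluster led by Mmp9 and Adgre4 had 4 and 18. The cDC1-like cells of the knockout culture also had 22.6, whereas those of the untreated and VD3 cultures had 356 and 306. In the cDC1-like cluster it was 933 for untreated and 1233 for VD3 stimulated cells. Basophil-like cells, with Clec1b at 312 CPM in untreated DCs, had 5.82 and 6.62, so the proportion was not the same in every cell type. They held 189 of the 647 untreated and 151 of the 520 VD3 stimulated Clec1b UMIs, and the knockout culture had 1 such cell. Whether part of the Clec9a UMIs in Ndrg2-KO DCs came from Clec1b transcripts was not tested.

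Over all clusters together, Clec1b was found more often in cells with Clec9a. Among Ndrg2-KO cells outside the cDC1-like cells and drawn to 2000 UMIs, Clec1b was found in 14.9% (interval 8.93 to 22.8) of 114 cells with Clec9a and in 6.62% (6.06 to 7.22) of 7295 cells without. Olr1 was found in 19.3% (12.5 to 27.7) of the former and 9.86% of the latter, and Clec12a in 11.4% and 8.98%. Clusters 0 and 10 held 1120 and 348 of the 1503 Clec9a UMIs and 4922 and 1488 of the 6472 Clec1b UMIs of this culture. These shares pool all clusters, so whether the genes go together within a cluster was not tested.

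**Figure D3:**
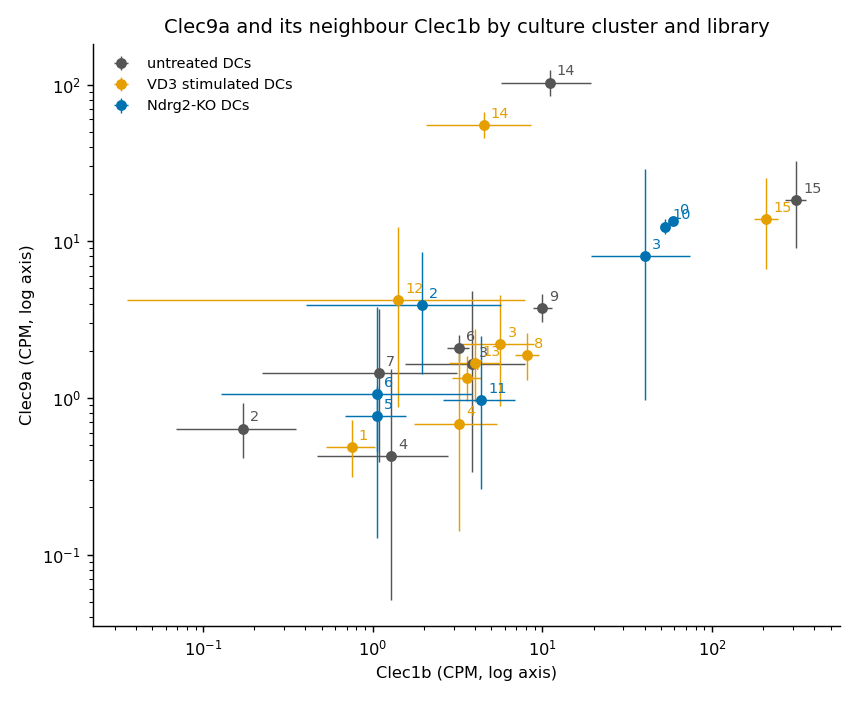
Clec9a against Clec1b in each culture cluster (numbered) and library, in CPM on log axes, with exact 95% Poisson intervals, for groups of at least 50 cells with UMIs of both genes. Clusters 0 and 10 of Ndrg2-KO DCs lie together at 13.4 and 12.4 CPM of Clec9a with 59.0 and 53.0 CPM of Clec1b, while cluster 14, the cDC1-like cluster, lies at 103 and 55.3 CPM of Clec9a, above its Clec1b.

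In wounds, the receptors separated by cell class. Summed over the 3 wound libraries, neutrophil-like cells held 63.4% of the Clec4d UMIs and 66.7% of the Clec4e UMIs. Macrophage-like cells held 88.6% of the Clec10a, 74.2% of the Mrc1 and 52.4% of the Clec4a3 UMIs. Mgl2 was shared between macrophage-like (49.0%) and dendritic-like cells (33.4%), and so was Cd209a (44.4% and 45.1%), but the order differed between libraries. Macrophage-like cells held 62.2% of the Cd209a UMIs with control DCs, 44.9% with Ndrg2-KO DCs and 23.7% with blank hydrogels, and dendritic-like cells 31.7%, 39.4% and 65.3%. For Mgl2 these were 49.2%, 64.1% and 35.5%, and 34.3%, 18.6% and 45.4%. Clec4n was spread over an unnamed class led by Mmp12 and Ppbp (38.1%), neutrophil-like (26.9%) and macrophage-like cells (17.6%), and its leading class differed between libraries: macrophage-like cells with control DCs (35.7%), the Mmp12 and Ppbp class with Ndrg2-KO DCs (45.4%) and neutrophil-like cells with blank hydrogels (37.2%). Clec9a, with 8 UMIs in control DC, 35 in Ndrg2-KO DC and 14 in blank hydrogel wounds, was found mostly in dendritic-like cells (54.4%), and none was counted in macrophage-like cells. With 30 principal components the class named dendritic-like held 1.75% of the Clec9a UMIs, so this share depends on the clustering.

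**Figure D4:**
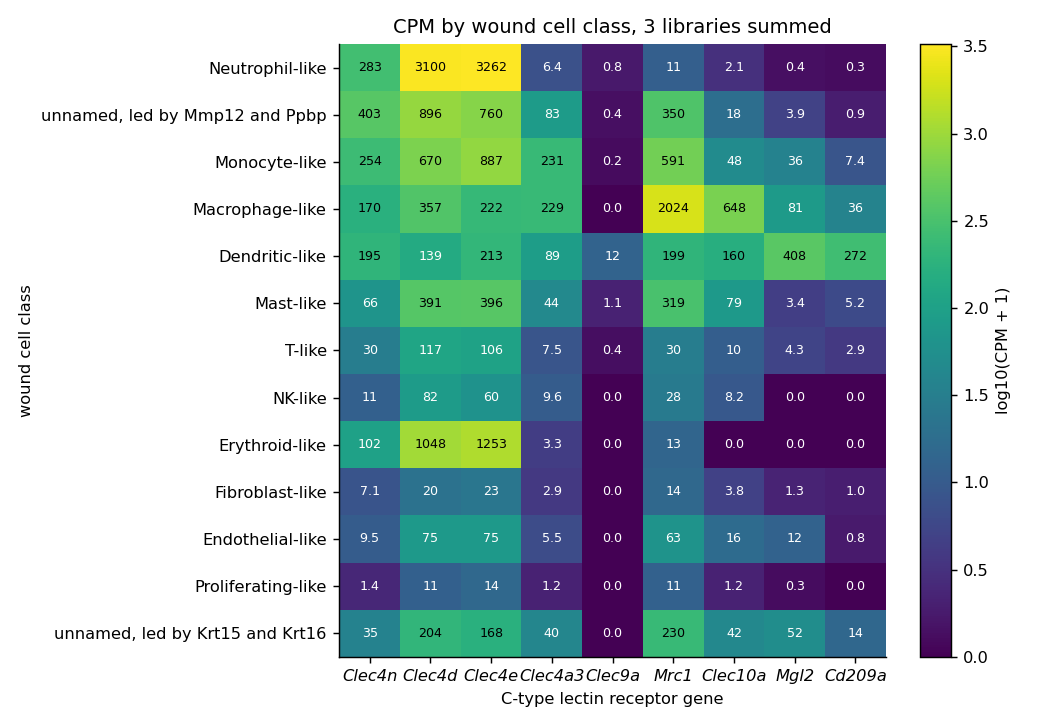
Level of each C-type lectin receptor gene in each wound cell class, summed over the 3 wound libraries, with the CPM written in each cell and the colour showing log10(CPM + 1). Clec4d and Clec4e are highest in neutrophil-like cells, Mrc1, Clec10a and Clec4a3 in macrophage-like or monocyte-like cells, and Mgl2 and Cd209a in dendritic-like cells.

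The wound groups differed in cell classes. Neutrophil-like cells were 23.4% of the cells with control DCs, 50.9% with Ndrg2-KO DCs and 45.5% with blank hydrogels, with 5.44%, 19.8% and 16.8% of the UMIs. Fibroblast-like cells held 50.2%, 26.0% and 27.8% of the UMIs. The 10 neutrophil markers, all with UMIs, summed to 8478, 26023 and 20352 CPM, and the 6 fibroblast markers to 48534, 21872 and 22095 CPM. These shares move with the library totals of Clec4d, Clec4e and Clec4n, so each is followed below also within classes. Both comparisons share the control DC library.

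Wounds with Ndrg2-KO DCs had more Clec4e, Clec4d and Clec4n and less Cd209a and Mgl2 per library than wounds with control DCs. Of 8 members with enough UMIs, 3 were at least 2-fold higher and 2 lower, where 4.39% of the 13358 genes compared were higher and 6.22% lower. Several calls lie near the limit: without the highest 6% of doublet scores the log2 ratio was 0.93 for Clec4n and -0.91 for Mgl2, and with median-ratio scaling -0.87 for Mgl2 and -0.92 for Cd209a, which leaves 0 lower. The median log2 ratio over the members was -0.10 and over all genes -0.15. Wounds with blank hydrogels had the same 3 genes higher and 0 lower, where 3.71% of 13137 genes were higher and 3.89% lower. The medians there were 0.13 and -0.037.

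Clec4e was counted at 231 CPM with control DCs, 1072 CPM with Ndrg2-KO DCs and 704 CPM with blank hydrogels. The log2 ratio against control DCs was 2.21 (interval 2.18 to 2.25) for Ndrg2-KO DCs and 1.61 (1.57 to 1.64) for blank hydrogels. Clec4d was counted at 334, 942 and 800.3 CPM, with log2 ratios of 1.49 (1.46 to 1.53) and 1.26 (1.23 to 1.29). Clec4n was counted at 90.3, 183 and 184 CPM, with log2 ratios of 1.02 (0.96 to 1.09) and 1.03 (0.96 to 1.09). The library with control DCs was lowest for all 3 genes, and the other libraries were alike for Clec4n. At 1000 UMIs per cell, Clec4e was found in 25.4%, 55.5% and 49.6% of the cells and Clec4d in 32.7%, 60.9% and 54.9%. In fibroblast-like cells, which should lack both, Clec4d was found in 0.213%, 3.03% and 1.86%, and Clec4e in 0 of 470 (up to 0.638% allowed), 3.90% and 2.48%, at median depths of 30018, 26664 and 28010.0 UMIs. These levels in cells that should lack the genes were lowest with control DCs. A small erythroid-like class, with 4, 64 and 8 cells, also carried both genes.

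Clec4d and Clec4e lie beside each other on chromosome 6, Clec4d from 123262111 to 123275265 on the plus strand and Clec4e from 123281789 to 123289870 on the minus strand. Their promoters are shown because the genes were counted in the same cells. Among wound cells with Ndrg2-KO DCs drawn to 1000 UMIs, Clec4e was found in 76.1% of the 3362 cells with Clec4d and in 28.2% of those without. The windows are chr6:123261857-123262156 (plus strand) and chr6:123289822-123290121 (minus strand), each written 5′ to 3′ along its gene, from RefSeq and GRCm38.p6. Capitals mark the motif matches.
Clec4d promoter: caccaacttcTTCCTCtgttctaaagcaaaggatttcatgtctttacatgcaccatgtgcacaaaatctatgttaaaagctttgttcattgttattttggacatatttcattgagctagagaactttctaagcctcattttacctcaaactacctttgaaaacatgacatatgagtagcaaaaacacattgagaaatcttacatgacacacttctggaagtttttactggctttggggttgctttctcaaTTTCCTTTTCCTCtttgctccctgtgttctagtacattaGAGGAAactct
Clec4e promoter: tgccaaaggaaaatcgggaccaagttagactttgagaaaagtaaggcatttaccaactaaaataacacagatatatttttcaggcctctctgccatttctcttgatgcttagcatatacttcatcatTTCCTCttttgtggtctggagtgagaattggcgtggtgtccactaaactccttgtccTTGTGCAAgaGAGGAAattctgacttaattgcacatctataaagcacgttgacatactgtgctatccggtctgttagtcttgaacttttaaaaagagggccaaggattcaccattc
The Clec4d window holds 3 PU.1 cores, at bases 11 to 16, 258 to 263 and 290 to 295, and an IRF match at bases 251 to 260 that overlaps the second of them. The Clec4e window holds 2 PU.1 cores, at bases 128 to 133 and 195 to 200, and a C/EBP match at bases 185 to 192. C/EBP matches were found in 10.8%, IRF matches in 3.44% and AP-1 matches in 7.81% of all promoters of this length.

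Within neutrophil-like cells Clec4d was nearly equal in the 3 wound groups, at 3295 CPM with control DCs, 3077 with Ndrg2-KO DCs and 3085 with blank hydrogels. The log2 ratio of Ndrg2-KO DC to control DC wounds was -0.099 (interval -0.14 to -0.057). Clec4e was counted there at 2597, 3689.6 and 2734 CPM, with log2 ratios of 0.51 (0.46 to 0.55) for Ndrg2-KO DCs and 0.074 (0.025 to 0.12) for blank hydrogels. Clec4n was counted there at 255, 213 and 408 CPM. The class joins 2 clusters in different proportions. The one led by Il23a and Ngp, with Il1a, Ccl3 and Tnf also among its leading genes, held 67 of 456 neutrophil-like cells with control DCs. It held 967 of 2892 with Ndrg2-KO DCs and 269 of 1549 with blank hydrogels. In that cluster Clec4e was counted at 4713 CPM (interval 4461 to 4976) with control DCs, 5251 (5180.2 to 5322) with Ndrg2-KO DCs and 4012 (3905 to 4119.8) with blank hydrogels. In the other cluster it was counted at 2159 (2081 to 2239.7), 2599 (2558 to 2642) and 2351 (2306 to 2396) CPM. The Clec4e difference between Ndrg2-KO DC and control DC wounds was thus smaller within each cluster than over the class.

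Clec4e was also higher in the macrophage-like cells of Ndrg2-KO DC wounds, at 139 CPM with control DCs, 287 with Ndrg2-KO DCs and 196 with blank hydrogels. The log2 ratios were 1.04 (interval 0.92 to 1.17) and 0.49. In monocyte-like cells it was counted at 579, 996 and 941 CPM, and in the class led by Mmp12 and Ppbp at 289, 1027 and 577 CPM. Clec4d in macrophage-like cells was nearly equal, at 366, 355 and 353 CPM. It was counted at 533, 672 and 740.1 CPM in monocyte-like cells and at 610.2, 1071 and 768 CPM in the class led by Mmp12 and Ppbp. Fibroblast-like cells had Clec4e at 3.70, 46.0 and 22.8 CPM and Clec4d at 4.23, 34.9 and 25.4 CPM, and T-like cells had Clec4e at 12.7, 189 and 66.5 CPM, which gives the size of what cells without the receptor held. The part of RNA from other cells in the Clec4e values of macrophage-like cells was not tested.

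With every wound class given the weight it had in control DC wounds, a calculation added after the data were seen, the log2 ratio for Ndrg2-KO DCs was 0.96 for Clec4e, 0.27 for Clec4d and 0.29 for Clec4n. For blank hydrogels these were 0.44, 0.13 and 0.17. None of the 3 genes then reached 2-fold in either comparison. With every cell given equal weight, the ratios of Ndrg2-KO DC wounds were 1.49, 0.94 and 0.48, and those of blank hydrogels 0.95, 0.77 and 0.86.

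**Figure D5:**
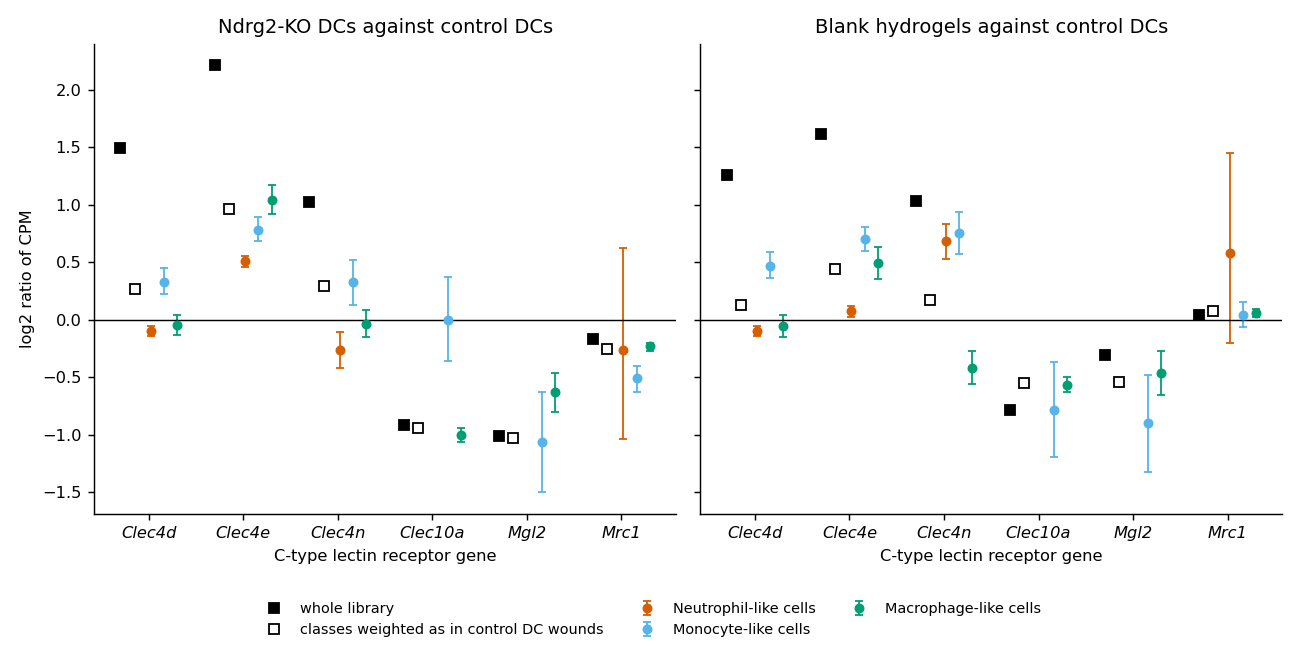
Log2 ratio of CPM for 6 receptor genes in wounds with Ndrg2-KO DCs (left) and blank hydrogels (right) against control DCs, for the whole library, for classes weighted as in control DC wounds, and within neutrophil-like, monocyte-like and macrophage-like cells with exact 95% intervals, where the 2 sums held at least 50 UMIs. Clec4d lies at 1.49 for the whole library and at -0.099 within neutrophil-like cells, while Clec10a lies at -0.91 for the whole library and near it within macrophage-like cells.

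The galactose-type lectins and Cd209a showed the opposite order, and in macrophage-like cells the direction was that of the whole library. Clec10a was counted at 180.5 CPM with control DCs, 95.9 with Ndrg2-KO DCs and 105 with blank hydrogels, log2 ratios of -0.91 (interval -0.97 to -0.86) and -0.78 (-0.84 to -0.72). In macrophage-like cells it was counted at 946, 474 and 638 CPM, with intervals of the ratio of -1.06 to -0.94 and -0.63 to -0.50. The class joins 2 clusters, of which the one led by Cd209 family genes held 80 of 354, 148 of 599 and 52 of 370 cells. Clec10a was counted there at 1992 (interval 1921 to 2065), 966 (931 to 1001) and 1729 (1643 to 1819) CPM, and in the other cluster at 529 (506 to 553), 205 (194 to 218) and 401 (382 to 421) CPM. Clec10a was thus highest with control DCs per library and in both clusters. In monocyte-like cells the log2 ratio of Clec10a was 0.0022 for Ndrg2-KO DCs and -0.78 for blank hydrogels. The class-weighted ratios were -0.94 and -0.55.

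Mgl2 was counted at 37.8, 18.8 and 30.5 CPM, with log2 ratios of -1.01 (interval -1.13 to -0.88) and -0.31 (-0.43 to -0.19). In macrophage-like cells it was counted at 106, 68.4 and 77.2 CPM. In dendritic-like cells, with 39, 82 and 76 cells, it was counted at 706 CPM (interval 638 to 781), 180.0 (154 to 209) and 463 (422 to 506). The wounds with Ndrg2-KO DCs were lowest in both classes. Cd209a was counted at 19.3, 9.32 and 14.5 CPM, with log2 ratios of -1.05 (-1.23 to -0.87) and -0.41 (-0.59 to -0.24). In macrophage-like cells it was counted at 68.5, 23.7 and 24.5 CPM, mostly from the cluster led by Cd209 family genes, at 228 (205 to 254), 51.0 (43.4 to 59.7) and 93.8 (74.6 to 116) CPM. It was counted in dendritic-like cells at 334 (287 to 386), 188 (162 to 218) and 316 (283 to 352). Cd209a with blank hydrogels was therefore low in macrophage-like cells but near the control DC level in dendritic-like cells. These dendritic-like values rest on few cells, and whether they were seeded or host cells was not tested.

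By summed CPM per library, Mrc1 and Clec4a3 differed little between wounds. Mrc1 was counted at 470.1, 417 and 482 CPM, with log2 ratios of -0.17 (interval -0.20 to -0.14) and 0.037 (0.0046 to 0.070), and in macrophage-like cells at 2149.7, 1829 and 2238 CPM. Clec4a3 was counted at 69.6, 68.1 and 80.7 CPM, with ratios of -0.031 (-0.11 to 0.049) and 0.21 (0.13 to 0.30). Within classes it moved both ways with Ndrg2-KO DCs. Its ratio was -1.36 (-1.57 to -1.15) in the class led by Mmp12 and Ppbp and 1.26 (0.35 to 2.23) in mast-like cells. With a mean over cells the ratio of Ndrg2-KO DC wounds was -1.05 for Mrc1, -0.71 for Clec4a3 and -1.74 for Clec10a. Clec9a was counted at 0.270, 0.711 and 0.401 CPM, too few UMIs to compare (log2 ratio 1.40 for Ndrg2-KO DCs, interval 0.27 to 2.72).

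28 other genes of C-type lectins and related receptors were measured. With VD3, 8 of 18 with enough UMIs were at least 2-fold lower and 1 was higher, with a median log2 ratio of -0.58 (all genes, as above, 7.44% lower and 4.18% higher). The DC immunoreceptor gene Clec4a2 stood at 126 CPM without and 17.5 CPM with VD3, and Clec4b1, also known as DCAR, at 31.3 and 4.33 CPM. The 1 higher was the activation marker Cd69, at 28.4 and 81.3 CPM. In Ndrg2-KO DCs 6 of 18 were higher and 7 lower, with a median of -0.12 (all genes 10.2% and 9.28%). Clec4a2 and Clec4b1 were there on the higher side, at 254 and 73.6 CPM. Clec4a2, Clec4b1 and Colec12 were at least 2-fold lower with VD3 and higher in Ndrg2-KO DCs. Clec4a1, Clec5a, Cd209c, Cd209d and Cd207 were at least 2-fold lower in both. In wounds with Ndrg2-KO DCs 6 of 24 were higher and 3 lower (median 0.41, all genes 4.39% and 6.22%), and with blank hydrogels 4 and 4 (median -0.0039, all genes 3.71% and 3.89%).

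Of 20 genes of the signalling chain below these receptors, 0 were at least 2-fold higher and 2 lower with VD3 (Malt1 and Prkcd, median -0.16), where all genes gave 4.18% and 7.44%, so the count of lower genes is near the background. In Ndrg2-KO DCs 0 were higher and 4 lower (Malt1, Nfkb2, Rel and Relb, median -0.23, all genes 10.2% and 9.28%). Fcer1g, the adaptor that Mincle, MCL and Dectin-2 need, was counted at 1239, 830.4 and 1243 CPM without treatment, with VD3 and in the knockout culture. In wounds with Ndrg2-KO DCs 4 were higher, among them Fcer1g, at 586 CPM with control DCs and 1495 CPM with Ndrg2-KO DCs, and 0 lower (median 0.52, all genes 4.39% and 6.22%). With blank hydrogels 3 were higher, among them Fcer1g and Fgr, and 0 lower (median 0.56, all genes 3.71% and 3.89%). Of 5 inhibitors of this signalling, none reached 2-fold with VD3, in Ndrg2-KO DCs or in wounds with Ndrg2-KO DCs, and Ptpn6, the phosphatase SHP-1, was higher with blank hydrogels (log2 ratio 1.17). The part of the neutrophil-like share in these wound values was not tested.

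Of 18 genes known to be induced through these receptors, 2 of 13 compared were higher with VD3 and 3 lower (median 0.42, all genes 4.18% and 7.44%). Higher were Ccl4 and Ptgs2, and lower were the chemokines Cxcl1 and Cxcl2 and the inflammasome gene Nlrp3. In Ndrg2-KO DCs 1 of 14 was higher and 6 lower (median -0.87, all genes 10.2% and 9.28%), with Tnf at 35.1 CPM in the untreated and 3.46 CPM in the knockout culture. In wounds with Ndrg2-KO DCs 9 of 18 were higher and 0 lower (median 1.27, all genes 4.39% and 6.22%), with Il1b at 687 CPM with control DCs and 3331 CPM with Ndrg2-KO DCs. With blank hydrogels 7 of 18 were higher and 0 lower (median 0.21, all genes 3.71% and 3.89%). The neutrophil-like share of cells was 23.4%, 50.9% and 45.5% in the 3 wound groups, and its part in these values was not tested either.

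Genes with the most similar pattern were sought by Pearson r of log2(CPM + 1) over groups of at least 50 cells of 1 cluster and library, which share libraries and depth, so r is a description only. Over 31 wound groups Clec4d was most like Nlrp3 and Cd14 (r = 0.98), Clec4e was most like Arg2 (0.98), and Clec4n had an r of 0.95 with Fcer1g. Clec10a was most like Cyp27a1 (0.94), Mrc1 most like Kcnk13 (0.97), and Cd209a most like Mgl2 (0.89). Between members, r was 0.94 for Clec4d and Clec4e, 0.92 for Mrc1 and Clec10a, and -0.079 for Mrc1 and Clec4d. Over 26 culture groups r was 0.93 for Clec4d and Clec4e and 0.89 for Clec10a and Mgl2. Clec9a had the weakest best match of the members compared there, Myo6 at 0.76.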

How the data were processed

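The authors deposited UMI counts per gene and cell barcode, not normalized, for 6 single-cell libraries (1 per condition), made with Cell Ranger 3.1.0 (cultures) and 6.0.0 (wounds) per the file headers. The study's methods name mm10, whereas the submitters' processing notes list mm9 and Seurat 3.1.1; reads were not processed here. Of 2711 to 9794 barcodes per library, 1948 to 8825 cells were kept by the limits given in the text, with median depths of 4415 to 16316 UMIs. Counts were summed per library or class, scaled to CPM and compared as log2 ratios with conditional binomial intervals. Intervals of levels were Poisson and those of shares Clopper-Pearson. A count of 0 was set to 3 UMIs in ratios.

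Clustering of the cultures and of the wounds (Seurat 5.3.0, R 4.3.3, Matrix 1.6.5) used 2000 variable genes without the members and Ndrg2, 15 principal components, 15 neighbours and resolution 0.5. A cluster was named when at least 3 markers of 1 list reached 50 CPM and 2-fold over the other cells. Doublets were kept, and an alternative left out the highest 6% of Scrublet scores (scanpy 1.11.5). For shares, cells were drawn to 2000 (cultures) or 1000 UMIs (wounds), leaving out 472, 1149 and 134 culture and 25, 95 and 65 wound cells. Gene positions are from GENCODE M21. Sums and intervals were computed with SciPy 1.17.1, NumPy 2.4.6 and pandas 2.3.3 under Python 3.11.15.

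The members and lists were chosen with earlier results of these data known. Named were all members, the lists by count with up to 6 values, and the genes of highest r per member; 1 gene so named is not reported here. Intervals were tested on simulated counts. Alternatives covered cell filters, doublets, scaling, fold and UMI minimum, drawn depth, markers required, components and resolution.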

Additional observations from a re-analysis of the deposited data

Results flagged for a closer look

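In 3 comparisons the log2 ratio of a receptor was at least 2-fold in opposite directions in different cell classes, with intervals on opposite sides of 0. None of these differences between classes was tested. With VD3, a culture cluster led by Elane and Prtn3 (104 untreated and 1080 VD3 stimulated cells) and proliferating cells gave log2 ratios of 4.80 and -2.38 for Clec4a3, 1.15 and -1.31 for Clec4d, 1.37 and -1.63 for Clec4e, 5.55 and -1.86 for Clec4n, and 2.92 and -5.99 for Mrc1. The 4.80 rests on 1 untreated UMI (interval 2.31 to 10.11) and the -5.99 on 4 UMIs with VD3 (interval -7.87 to -4.64). The cluster led by Elane and Prtn3 may hold unlike cells without and with VD3. The summed progenitor markers were at 217 CPM in the untreated and 85.2 CPM in the VD3 library. Most VD3 stimulated proliferating cells were in a cluster with a median of 2025 UMIs per cell, whereas most untreated ones were in a cluster with a median of 26543 UMIs.

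In wounds with Ndrg2-KO DCs against control DCs, Clec4a3 had a log2 ratio of 1.26 in mast-like cells and -1.36 in the class led by Mmp12 and Ppbp. With blank hydrogels against control DCs, Clec10a had 1.12 in mast-like cells and -1.10 in the class led by Mmp12 and Ppbp.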

How the results depend on the processing

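No paired analysis was possible because every condition has 1 library. No log2 ratio that was past 2-fold changed sign. Of 270 values of all members under the alternatives, 158 moved by less than the counting interval and 112 further, and 7 ratios under 2-fold had both signs over 8 settings: Clec4a3, Clec4d, Clec4n and Clec10a in Ndrg2-KO DCs, Clec4a3 in both wound comparisons (-0.71 to 0.10 and -0.17 to 0.25) and Mrc1 with blank hydrogels (-0.41 to 0.069). In Ndrg2-KO DCs the count of higher members was 1 and became 2 with the 5% mitochondrial limit and 2 at 1.5-fold, and the count of lower members went from 2 to 4 at 1.5-fold. In wounds with Ndrg2-KO DCs the count of higher members was 3, 1 with the mean over cells and 0 with classes weighted as in control DC wounds (added after seeing the data); the count of lower members was 2, 1 without the highest 6% of doublet scores, 0 with median-ratio scaling and 4 with the mean over cells. With blank hydrogels the higher members were 3, but 0 with the mean over cells and 0 with weighted classes, and the lower were 0, but 1 with the mean over cells and 1 at 1.5-fold. With VD3 the lower members were 7, and 5 to 8 in the alternatives. Clec9a outside cDC1-like cells had a log2 ratio of 3.31 for Ndrg2-KO DCs and 2.43 outside the cDC1-like cluster. The causes were not tested. At resolution 1.0 macrophage-like cells held 58.4% of the Mrc1 UMIs. Clec9a in wounds and Cd209a in the VD3 and Ndrg2-KO cultures rest on 35 UMIs or fewer per library.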
